A study of Saccharomyces cerevisiae with 3 samples.

Results

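Purine nucleotide synthesis was followed through 9 yeast genes, ADE1, ADE2, ADE4, ADE6, ADE8, ADE12, ADE13, ADE16 and ADE17, out of 5656 genes with a signal of their own on the array. A gene belonged to the set when a probe set annotated to it alone carried its symbol. All 9 genes were measured, each by 1 such probe set. ADE5,7, which encodes another enzyme of the same pathway, was not analysed here.

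Saccharomyces cerevisiae, the budding yeast, had been grown to steady state in 3 independent chemostats, in which the feed rate sets the growth rate. The 3 cultures form 1 group, and each was read on an Affymetrix array of its own. Growth was limited by glucose and aerated, at a dilution rate of 0.10 per h, 30 °C and pH 5.0, in a defined mineral medium with 7.5 g glucose and 5.0 g ammonium sulphate per litre and dissolved oxygen above 80% of air saturation. The listed medium components include no purine, and neither the strain nor its alleles are stated in the labels. With no second condition to set the cultures against, values are described without tests. Total RNA came from whole cultures, so a lower signal cannot be divided between fewer cells that express a gene and less RNA per cell.

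Purine synthesis builds the ring step by step on phosphoribosyl pyrophosphate (PRPP) and ends at inosine monophosphate (IMP), from which separate branches lead to AMP and GMP. In yeast the pathway is held back by its nucleotide products when adenine is supplied. Its genes are activated by the Myb-related factor Bas1 together with the homeodomain factor Pho2, and the intermediates SAICAR and AICAR promote that partnership. Bas1 and Pho2 also act on genes of histidine synthesis and of one-carbon and glycine metabolism, which supplies formyl groups for the ring.

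The deposited signals did not share a scale between arrays. The median over genes was 54.7, 127 and 96.7 in cultures 1, 2 and 3, so an SD of signals contains this array-wide difference. The 3'-to-5' signal ratio of the actin control lay between 1.23 and 1.43. Controls on the sense strand, for which no target was labelled, gave up to 26.3, so a signal below about that value may come from nonspecific binding. Of 5 genes known from respiratory, glucose-limited growth, among them ADH2 and ICL1, 5 were bright, and 4 of 5 genes known from high glucose or low oxygen, among them HXT1 and DAN1, were dim. The exception was the glucose transporter gene HXT3, with a mean signal of 177 at percentile 68.6 of all genes. A gene is called bright here when its mean signal over the cultures lay over the 90th percentile of all genes (589.6) and dim when it lay under the 30th (48.3). Brightness depends on the probes of each set, so it says nothing of which of several genes had more transcript.

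Of the 9 purine genes, 4 were bright (ADE1, ADE2, ADE6 and ADE13), while 10% of all genes are bright by definition. ADE4 alone was dim, in which class 30% of all genes fall by definition. The other 4 lay just under the bright limit, from ADE8 at percentile 87.0 to ADE12, which missed it by less than 1 unit of signal and passed it when arrays were first brought to a common median. The median of the 9 mean signals was 589, beside 93.9 over all genes.

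**Figure D1:**
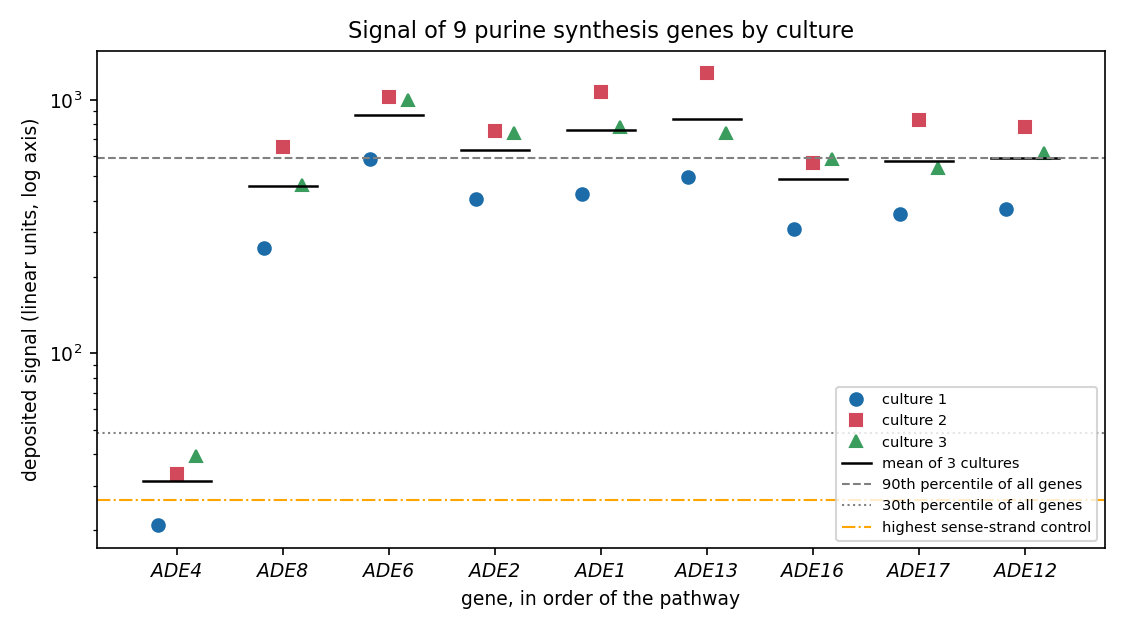
Deposited signal of the 9 purine synthesis genes on a log axis, with 1 point per culture and a black line for the mean of 3 cultures. Culture 1 is the lowest point of every gene, and ADE4 lies near the highest sense-strand control while the other 8 genes have means from 458 to 868.

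The first step is catalysed by PRPP amidotransferase, the product of ADE4 and the point at which nucleotides inhibit the pathway. ADE4 read 21.0, 33.4 and 39.2 in cultures 1, 2 and 3 (mean 31.2 ± 9.32, SD, n = 3). Only 2 of 3 arrays were above the highest sense-strand control, and the value in culture 1 was below it. The highest such control was 23.2, 26.3 and 24.2 on the arrays of cultures 1, 2 and 3. ADE4 lay above it in cultures 2 and 3. The ADE4 signal is therefore limited by background, most of all in culture 1, and its differences between cultures are weakly measured.

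ADE8 encodes glycinamide ribonucleotide transformylase, which uses a formyl group from the folate pool. Its signal was 260.5, 651 and 461 in cultures 1, 2 and 3 (458 ± 195). ADE6 encodes formylglycinamidine ribonucleotide synthetase, a glutamine-dependent enzyme. Its probe set was the brightest of the 9, with 582, 1028 and 994 in cultures 1, 2 and 3 (868 ± 248). As deposited, cultures 2 and 3 lay close together for ADE6 and further apart for ADE8. With each array shifted on the log2 scale to the same median over genes (a common median) this order turns, with culture 2 minus culture 3 at -0.35 for ADE6 and 0.10 for ADE8, the array of culture 2 having the higher median signal.

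ADE2, aminoimidazole ribonucleotide carboxylase, is the enzyme whose loss gives red colonies. It read 407, 751 and 739.6 in cultures 1, 2 and 3 (633 ± 195), and at a common median culture 2 minus culture 3 was -0.38. ADE1, SAICAR synthetase, acts next and had 423, 1070.4 and 777 in cultures 1, 2 and 3 (757 ± 324), and at a common median cultures 2 and 3 differed by only 0.06.

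ADE13 encodes adenylosuccinate lyase, which acts both on the way to IMP and in the AMP branch. It gave 497, 1271 and 741 in cultures 1, 2 and 3 (837 ± 396). ADE12, adenylosuccinate synthase, is the first enzyme of the AMP branch and its product is a substrate of the lyase. It read 371, 781 and 614 in cultures 1, 2 and 3 (589 ± 206).

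ADE16 and ADE17 are paralogues that each encode an enzyme with AICAR transformylase and IMP cyclohydrolase activities, which complete IMP. ADE16 had 309.7, 565 and 582 in cultures 1, 2 and 3 (485 ± 152). ADE17 had 355, 834 and 538 in the same cultures (576 ± 242). The order of cultures 2 and 3 differed between the paralogues, culture 3 being the highest for ADE16 and culture 2 for ADE17, as deposited and at a common median.

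As deposited, culture 1 was the lowest for all 9 genes, as it was for 98.2% of the 3959 genes that were not dim. Culture 2 was the highest for 7 of the 9, and for 87% of the genes that were not dim. The exceptions were ADE4 and ADE16, which were highest in culture 3. These counts are near the share over all genes and follow the scale of the arrays.

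Cultures were therefore compared after each array was brought to a common median on the log2 scale, with signals under 1 set to 1. Of the 9 purine genes 8 were not dim and entered the counts, and none of these 8 ranged over more than 1.5-fold between cultures, against 18.2% of all genes that were not dim and 17.1% of genes over the 50th percentile. The widest of the 8 was ADE16 at 1.36-fold. ADE4, which was dim, ranged over 1.55-fold, and with dim genes counted in 26.4% of all genes passed 1.5-fold. The median SD of log2 signal was 0.16 for the 8 genes and 0.18 for all genes that were not dim. This comparison turns with the cultures used, being 0.21 against 0.15 without culture 1, 0.050 against 0.13 without culture 2 and 0.099 against 0.16 without culture 3. Over the 3 cultures the SD was 0.06 for ADE1 and ADE8, 0.08 for ADE12, 0.13 for ADE17, 0.19 for ADE13, 0.21 for ADE2, 0.22 for ADE6 and 0.23 for ADE16. With 1 array per culture these differences have no replicate check, and culture and array cannot be told apart.

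**Figure D2:**
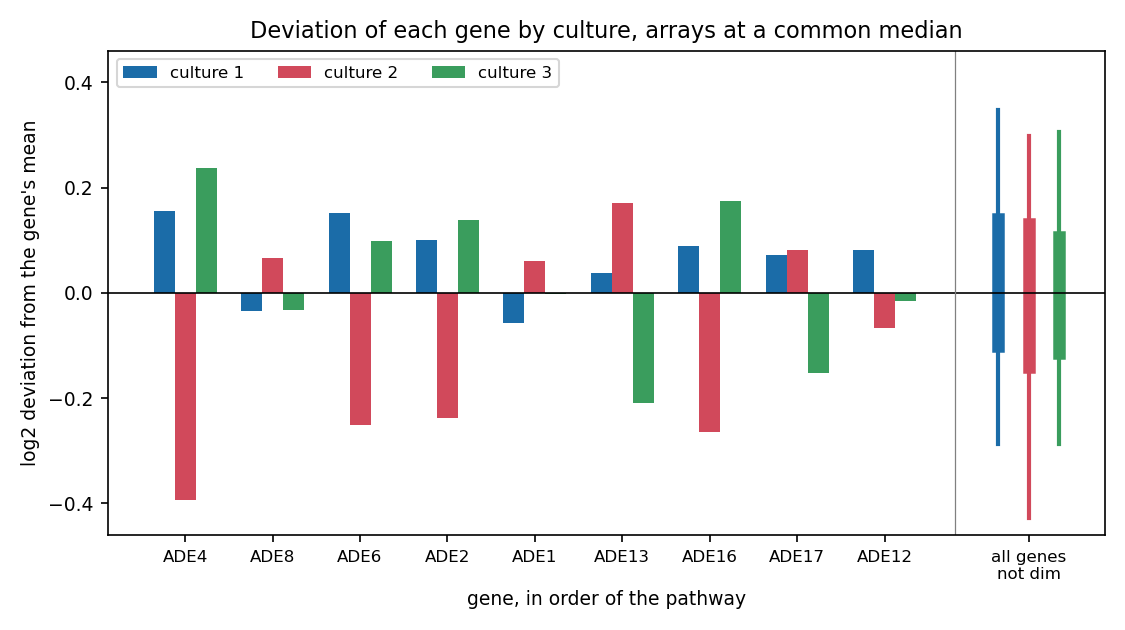
Log2 deviation of each purine gene from its own mean over 3 cultures, with arrays at a common median and a bar per culture. At the right, thin lines span the 5th to 95th and thick lines the 25th to 75th percentile of all genes that were not dim. ADE4, ADE6, ADE2 and ADE16 have their lowest value in culture 2, and ADE13 and ADE17 theirs in culture 3.

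The 9 genes did not move as a block. Cultures 1 and 3 differed little for most of them, since culture 3 minus culture 1 had a median absolute log2 difference of 0.07 over the 8 genes, beside 0.19 over all genes that were not dim. The widest of these differences belonged to ADE13 and ADE17, at -0.25 and -0.22, and the other 7 genes lay between -0.10 and 0.09. Culture 2 minus culture 3 had a median absolute difference of 0.29 beside 0.21 over all genes, and culture 2 minus culture 1 one of 0.14 beside 0.23. The median of the 8 genes was thus above that of all genes in 1 of the 3 comparisons and below it in the other 2. In culture 2 minus culture 3, ADE2, ADE6, ADE13, ADE16 and ADE17 differed by more than 0.21 in size. ADE1, ADE8 and ADE12 differed by only 0.06, 0.10 and -0.05.

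In culture 2 the genes lay on both sides of their own means. At a common median culture 2 held the lowest value of ADE2, ADE6, ADE12 and ADE16. It held the highest of ADE1, ADE8, ADE13 and ADE17. For ADE17 this was a near tie, culture 2 minus culture 1 being 0.01. Thus 8 of 8 genes had an extreme value there, as did 72.7% of all genes that were not dim. With log2(signal + 16) ADE12 had none there, its deviations being -0.02, 0.00 and 0.01 in cultures 1, 2 and 3. The lowest value fell in culture 2 for 36% of all genes and the highest for 36.8%. For so few genes the counts of 4 of 8 are near these shares. Deviations in culture 2 from the gene's own mean were -0.26 for ADE16, -0.25 for ADE6, -0.24 for ADE2 and -0.07 for ADE12, against 0.17 for ADE13, 0.08 for ADE17, 0.07 for ADE8 and 0.06 for ADE1. The dim ADE4 deviated by -0.39. The sign in culture 2 was the same under quantile normalization, cyclic loess and log2(signal + 16) for all of these except ADE12, whose deviation ranged from -0.07 to 0.00. The median over the 8 genes was 0.08, -0.00 and -0.01 in cultures 1, 2 and 3, and its sign turned under other scalings in each culture.

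The ratio of a pair of genes within an array does not depend on how the array is scaled, so its movement from array to array was compared over the 36 pairs of the 9 genes. Its size sets different probe sets against each other and is not interpreted. Among the 28 pairs without ADE4 the ratio ranged over more than 1.5-fold in 5, beside 41.4% of all pairs of genes not dim. The median range was 0.36 against 0.51 on the log2 scale. The 28 pairs share 8 genes, all from percentile 87.0 of mean signal up, and other pairs of like brightness were not compared. The steadiest pair was ADE1 and ADE8, whose log2 ratio was 0.70, 0.72 and 0.75 in cultures 1, 2 and 3. It is the lowest of 36, and the share of all gene pairs this steady was not computed. Each of these genes also kept close to the array-wide shift, with an SD of 0.06 at a common median. ADE2 and ADE16 came next with a range of 0.06, then ADE2 and ADE6 with 0.09, ADE6 and ADE16 with 0.14, and ADE13 and ADE17 with 0.15. ADE13 and ADE17 act in succession on the way to IMP, while ADE1 and ADE8 belong to separated steps. ADE13 and ADE16 act in succession as well, and their ratio ranged over 0.82. The ratio of ADE1 and ADE2, also successive, ranged over 0.46.

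**Figure D3:**
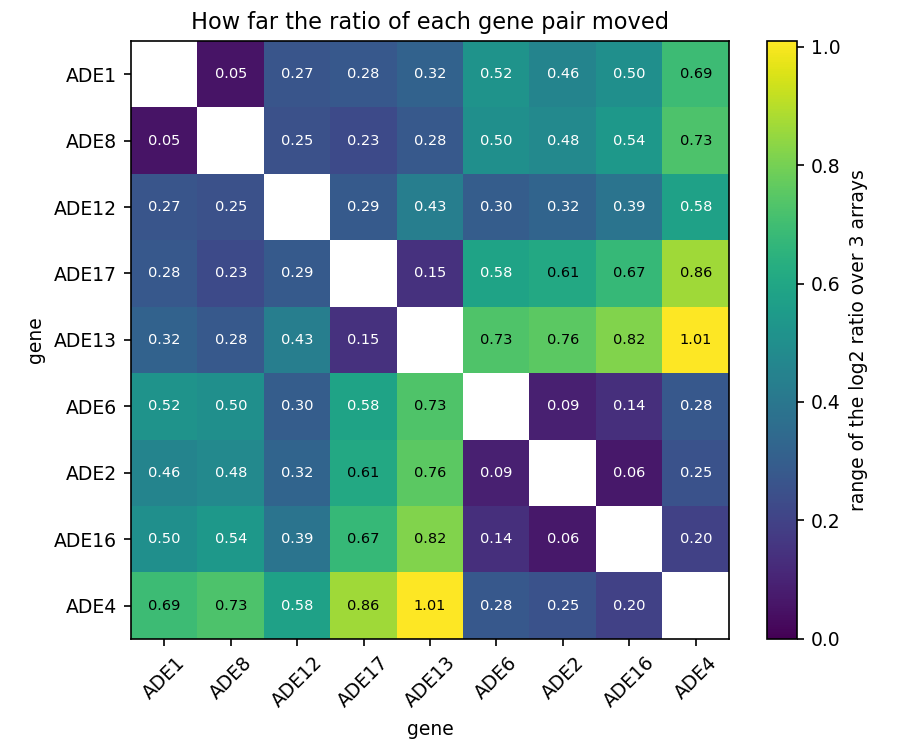
Range over the 3 arrays of the within-array log2 ratio for each pair of the 9 purine genes, where a low value means that both signals kept their ratio. Genes are ordered by hand and not by the pathway, which places ADE6, ADE2 and ADE16 side by side. These 3 have pair values of 0.14 or less, and ADE13 has values of 0.73 or more against these 3 genes and 1.01 against ADE4.

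The paralogues ADE16 and ADE17 were among the pairs that kept their ratio least, at rank 29 of 36 from the steadiest. The log2 ratio of ADE16 over ADE17 was -0.20, -0.56 and 0.11 in cultures 1, 2 and 3, a range of 0.67 or 1.60-fold. The range lies between cultures 2 and 3, and it was 0.31 without culture 2 and 0.36 without culture 3. The lyase ADE13 moved apart from ADE16 by 0.82 and from ADE2 by 0.76, the widest ranges among pairs without ADE4. ADE12 and ADE13, whose products act in succession in the AMP branch, had a range of 0.43.

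By the Euclidean distance of the 3 deviations from the median profile of the 9 genes, the nearest genes outside the set were SNR75, TAL1, NPL6, YNL195C and PCA1, at 0.0081 to 0.011. That profile is nearly flat and equals the deviations of ADE12 in cultures 1 and 2, so these are also genes that lie near ADE12. Outside the set 1467 of 3951 genes (37.1%) lay as near as ADE6 at 0.22.

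Genes around the pathway were read from lists of its branches, its regulators, salvage, one-carbon, histidine and pyrimidine genes, of whose 56 further genes 54 were measured, IMD1 and ADE5,7 being not analysed here. Of these, 18 were bright and 6 dim, and 5 of the 48 that were not dim ranged over more than 1.5-fold at a common median, against the 18.2% of all genes. These were the regulator BAS1, the purine-cytosine permease FCY2, the adenine phosphoribosyltransferase paralogue APT2, the serine hydroxymethyltransferase SHM2 and the histidinol-phosphate aminotransferase HIS5. Leaving out culture 1 brought the count to 1 of 49, against 9.3% of all genes. It was 3 of 49 without culture 2, against 5.89%, and 3 of 47 without culture 3, against 11.1%.

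The regulators gave unequal signals. BAS1 read 23.2, 81.1 and 67.5 in cultures 1, 2 and 3 (57.3 ± 30.3) and ranged over 1.65-fold at a common median. In culture 1 its signal of 23.19 was about equal to the highest sense-strand control of that array, 23.18, and below the sense-strand limit over all arrays. PHO2 was dim at 14.0 ± 5.48, under that limit on every array. GCN4, the activator of amino acid synthesis that also acts on purine genes, was bright at 3098 ± 1019. At a common median the deviations of BAS1 were -0.43, 0.15 and 0.28 in cultures 1, 2 and 3. The value in culture 1 rests on a signal about equal to the highest sense-strand control of that array.

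In the GMP branch 2 of 4 measured genes were bright. IMD3, an IMP dehydrogenase, read 496, 1463 and 1110.2 in cultures 1, 2 and 3 (1023 ± 489), and its paralogue IMD2 read 171, 368 and 348 (296 ± 109). Their probe sets carry the family code of near-identical sequences, so the signals cannot be assigned to 1 gene with certainty. The IMD2 probe set used deviated by -0.03, -0.15 and 0.18 in cultures 1, 2 and 3. Those not used deviated by -0.42, 0.10 and 0.32 and by -0.10, 0.08 and 0.02. IMD4 read 74.7 ± 29.0 and GMP synthetase GUA1 was bright at 645 ± 233. IMD4 and GUA1 kept close to the array-wide shift, with SDs of 0.01 and 0.05 at a common median, although the other IMD4 probe set deviated by -0.14 in culture 3.

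PRPP synthetase genes were all measured, with PRS1 bright at 919 ± 420 and PRS4 lowest at 165 ± 51.8. PRS3 deviated furthest, by 0.30 in culture 2 and -0.19 in culture 1. The median deviation of the 5 genes was -0.04, 0.10 and -0.08 in cultures 1, 2 and 3, beside 0.02, 0.01 and -0.01 over all genes that were not dim. In culture 2 it was 0.17 with log2(signal + 16) and 0.04 without culture 1.

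Salvage genes, which recover bases and nucleosides, had 2 bright and 1 dim member among 9. Adenosine kinase ADO1 was bright at 1661 ± 837 and guanine deaminase GUD1 dim at 47.9 ± 18.4. The 8 genes that were not dim had a median deviation of -0.18 in culture 1 and 0.15 in culture 2, of the same sign in all 4 scalings. The median in culture 2 was -0.04 without culture 1 (9 genes) and 0.21 without culture 3 (7 genes). Without culture 2 the median in culture 1 was -0.10 (9 genes). The genes that were not dim were determined anew each time, so these medians also reflect a change of genes. In culture 2 the phosphoribosyltransferases APT1, XPT1 and HPT1 deviated by 0.28, 0.26 and 0.22 and ADO1 by 0.17. Adenine deaminase AAH1 deviated by -0.29 in that culture. APT2 deviated by -0.36 in culture 1. Among purine transporters FCY2 read 203 ± 112 with a deviation of -0.43 in culture 1, and FCY21 and FCY22 were dim, FCY22 at 2.04 ± 0.76.

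The nucleotide kinases had 3 bright genes of 4, with adenylate kinase ADK1 at 1538 ± 519 and its mitochondrial paralogue ADK2 lowest at 81.9 ± 29.2. ADK1 deviated by 0.25 in culture 1 and -0.22 in culture 3. The 4 kinases had a median deviation of 0.17 in culture 1 and -0.13 in culture 3. Other scalings lowered the median in culture 1 to between 0.07 and 0.09 and kept that in culture 3 between -0.10 and -0.09, and it was 0.10 in culture 1 without culture 3 and -0.07 in culture 3 without culture 1.

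No gene of one-carbon and glycine metabolism was dim and 4 of 9 were bright. The glycine cleavage subunit GCV3 had the highest mean, 2202 ± 625, and MIS1, a mitochondrial folate enzyme, the lowest, 146 ± 70.0. ADE3, the cytosolic trifunctional folate enzyme that supplies formyl groups to the pathway, read 681, 1067 and 1083 in cultures 1, 2 and 3 (943 ± 228). The deviations of ADE3 were 0.24, -0.33 and 0.09 in these cultures and those of SHM2 0.30, -0.33 and 0.03. Both had their lowest value in culture 2, as had 36% of all genes that were not dim. Among the purine genes that were not dim, ADE2, ADE6, ADE12 and ADE16 were lowest there and ADE1, ADE8, ADE13 and ADE17 highest. The 9 one-carbon and glycine genes had a median of -0.14 in culture 2, with 0.15 for MTD1 and MIS1 on the other side. That median was -0.02 without culture 1, -0.06 with log2(signal + 16), -0.08 under quantile normalization and -0.09 under cyclic loess.

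Histidine genes had 2 bright and 1 dim member among 7, with HIS4 at 1726 ± 449.6 and HIS6 dim at 27.6 ± 14.4. HIS4 deviated by -0.30 in culture 2 and HIS5 by 0.32, and the median of the 6 genes that were not dim was 0.18 in culture 1 and -0.14 in culture 2. With log2(signal + 16) these medians were 0.07 and -0.06, and without culture 1 that in culture 2 was -0.04. Pyrimidine genes, set beside the purine genes as the parallel nucleotide pathway, had 3 bright and 1 dim member among 9. URA2, which encodes the first enzymes of the pathway, was bright at 1394 ± 502, and URA10, the minor orotate phosphoribosyltransferase, was dim at 34.5 ± 21.7. The pyrimidine gene of widest spread among those not dim was URA8, a CTP synthase, at -0.28 in culture 2 and 0.28 in culture 3. In culture 2 the SD between genes was 0.17 for the 8 purine genes and 0.15 for the 8 pyrimidine genes that were not dim, and it was 0.24 over all genes that were not dim. In culture 1 the order was the opposite, with 0.07 for the purine genes, 0.12 for the pyrimidine genes and 0.20 over all genes, and in culture 3 it was 0.14, 0.12 and 0.19.

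**Figure D4:**
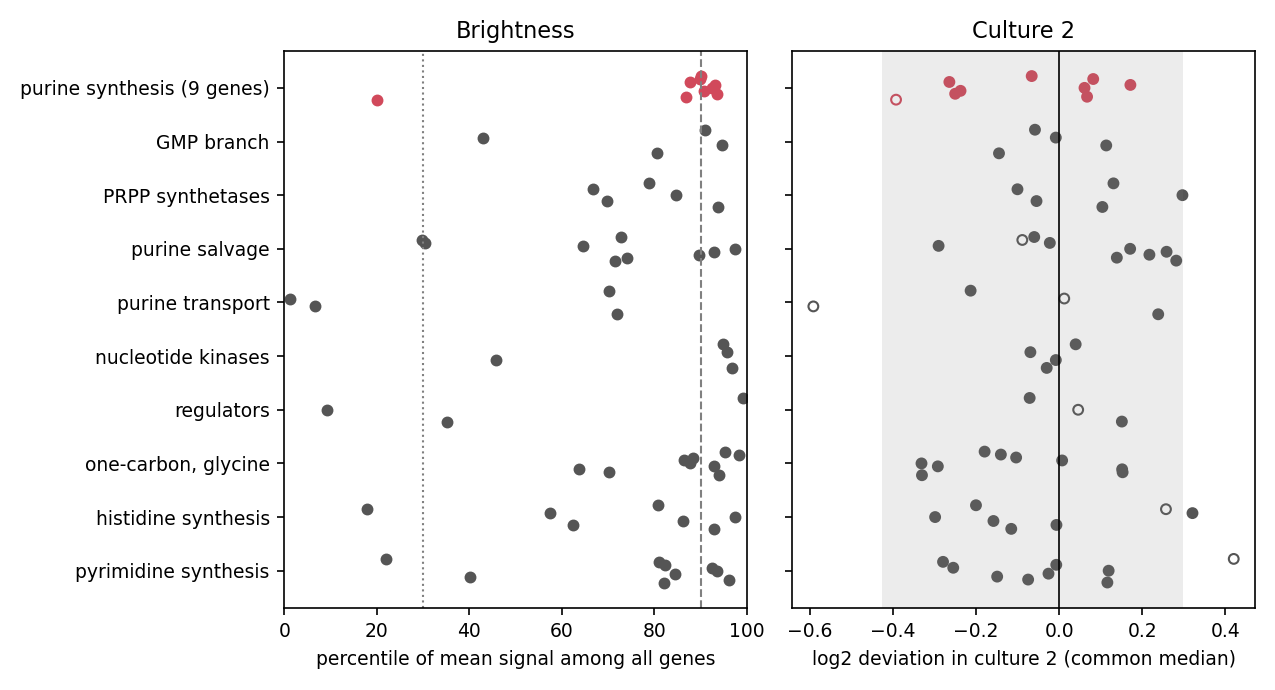
Left, percentile of each gene's mean signal among all genes, with the limits for dim and bright genes as lines. Right, log2 deviation in culture 2 at a common median, with dim genes as open circles and the 5th to 95th percentile of all genes that were not dim shaded. The purine genes other than ADE4 crowd at the bright limit, and on the right they fall on both sides of 0.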

How the data were processed

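Per the labels' protocols, total RNA of each culture was biotin-labelled and put on its own Affymetrix array. The authors deposited linear intensities per probe set. The submitters' processing notes name GCOS as software, and the sources used here give no summary method, background correction or scaling. Of 9335 probe sets, 60 were controls, 6504 had 1 gene, 328 several and 2443 none in the platform annotation. The 6504 were named through a RefSeq table (assembly R64, names and gene order only), and 1 probe set per gene was kept, one with a plain name first and then the brightest. Signals were floored at 1, taken to log2 and, between cultures, shifted to a common median over 5656 genes. The common median, quantile normalization and calls of a range over 2-fold were tested on simulated data. The 1.5-fold limit, the brightness classes, the pair ranges and the distances were not. The number of arrays (n = 3) limits the precision.

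The 9 genes and all lists were chosen with earlier results of these data known. Named outside the set were, for each list, the genes with the highest and lowest signal and, of those not dim, the largest SD, all regulators, GMP branch genes and ADE3, and the 5 genes nearest the median profile. ADH2, ICL1, HXT1, HXT3 and DAN1 stand for the culture markers. HPT1, APT1, XPT1, AAH1 and MTD1 were chosen after their values were seen. Alternatives were quantile normalization, cyclic loess (limma 3.58.1, R 4.3.3), no normalization, log2(signal + 16), the mean over probe sets, other limits and leaving out each culture. Python 3.11.15, numpy 2.4.6 and pandas 2.3.3 were used. A planned search of promoters for a motif was not run, since no sequences were used here.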

Additional observations from a re-analysis of the deposited data

How the results depend on the processing

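No paired analysis was possible because the cultures form 1 group. Without normalization 8 of the 8 purine genes that were not dim and 48 of 48 listed genes ranged over more than 1.5-fold, as did 97.2% of all genes, the median SD of the 8 was 0.58, and their median deviation was -0.60 in culture 1 and 0.54 in culture 2, which carries the scale of the arrays. With no limit for dim genes, which adds dim genes, 1 of 9 purine genes (ADE4) and 8 of 54 listed genes passed 1.5-fold, beside 26.4% of all genes. With limits at the 20th and 80th percentile 8 purine genes were bright and 0 dim, beside 20% of all genes in each class by definition. ADE4 lay barely above that lower limit, at percentile 20.03. Leaving out a culture gave a median SD of 0.050 to 0.21 (0.13 to 0.16 over all genes) and a range of the ADE16 to ADE17 ratio of 0.31 to 0.67. It gave 1 to 3 listed genes past 1.5-fold, against 5.89% to 11.1% of all genes, and 4 to 5 bright purine genes. Bright purine genes numbered 5, with ADE12 added, when a common median or quantile normalization came before averaging and with the mean over probe sets. The count past 1.5-fold remained 0 of 8 under quantile normalization, cyclic loess, log2(signal + 16) and the mean over probe sets. The shares of all genes that were not dim were 17.7%, 17.3%, 13.2% and 18% in these settings. The count of dim purine genes was 1 in all settings but the 20th percentile. The cause of these movements was not tested beyond the settings' own construction. ADE4, BAS1 and PHO2, near or under the highest sense-strand control on 1 or more arrays, are limited by signal over background.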

Other observations

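In the RefSeq gene order ADE16 lies next to RPL15A and ADE17 next to RPL15B, which encode the paralogous ribosomal proteins of the large subunit, so both pairs of paralogues are neighbours. These neighbours were looked up after the values of ADE16 and ADE17 were seen. RPL15A read 409 ± 151 and RPL15B 721 ± 179 (SD, n = 3). The deviations of RPL15A at a common median were 0.15, 0.00 and -0.16 in cultures 1, 2 and 3, and those of RPL15B 0.25, -0.23 and -0.03. In culture 2 ADE16, with -0.26, was the lower of the ADE paralogues while RPL15B was the lower of its own pair, so the neighbours did not share their deviations there. Near-identical coding sequences such as those of RPL15A and RPL15B can share probes, which makes their separate signals uncertain.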
